A study of Mus musculus with 36 samples.

Results

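The 10 genes described here, mouse counterparts of genes tied to Alzheimer's disease risk or partners of them, were followed through 8 groups of hippocampal slices. They were listed by name, as mouse orthologs of risk genes together with the Trem2 adaptor Tyrobp, with earlier results of these data known. They are Trem2, Tyrobp, Apoe, Spi1, Plcg2, Inpp5d, Abi3, Cd33, Bin1 and Clu, 10 of the 55421 genes counted, and all 10 were among the 19478 genes abundant enough to be tested. Total RNA depleted of ribosomal RNA was sequenced from slices of the right hippocampus of 16-month-old mice, and the values are RSEM's estimated gene counts per library.

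Wild-type mice were C57BL/6. T41B mice carry Thy1-hAPPLond/Swe, a transgene for human amyloid precursor protein that bears London and Swedish mutations under a Thy1 cassette, which drives expression mainly in neurons. Both genotypes were given vehicle or BD10-2 (PTX-BD10-2 in the labels), which partially activates TrkB and TrkC, receptors of neurotrophins, by gavage for 3 months from the age of 13 months. Slices were then stimulated with theta bursts (3 rounds of 10 bursts, 200 ms apart, with 4 pulses at 100 Hz in a burst) or went through a sham procedure of equal length, and were frozen directly afterwards. Vehicle groups held 4 wild-type and 4 T41B mice for either kind of slice, and BD10-2 groups held 3 wild-type and 5 T41B mice. All 8 groups therefore share slicing and the time spent as slices, and the labels give no sex.

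Most of these genes act in microglia, the resident macrophages of the brain. The surface receptor TREM2 binds lipids and lipoproteins, APOE among them, and signals through its partner TYROBP (also called DAP12), whose cytoplasmic motif recruits the kinase SYK. PLCG2 acts downstream of SYK. The lipid phosphatase INPP5D (SHIP1) restrains such signals, as does the sialic acid receptor CD33 in humans. What mouse CD33 does to them was not tested here. The transcription factor PU.1, encoded by Spi1, sets the myeloid program in which many of these genes are expressed. ABI3 belongs to a complex that remodels actin. APOE and clusterin (Clu) are lipid-carrying proteins that astrocytes make in quantity, and BIN1 is a membrane-bending protein found in neurons and oligodendrocytes as well as microglia.

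Library totals ran from 11597555 to 28125842 counts, with a median of 18082415. The 36 libraries came from 18 mice, and 4 pairs of libraries that carry the same mouse and slice labels were added, which left 32 samples. Levels are given as CPM, counts relative to the library total, scaled by TMM, a normalization for library composition. The libraries of such a pair could differ: before TMM scaling, Trem2 stood at 46.9 and 27.3 CPM in the sham slices of Mouse1557 and at 21.2 and 44.4 CPM in the stimulated slices of Mouse1592. Over all genes, the chi-square per degree of freedom between the libraries of the Mouse1565 sham pair was 31.66, above the 11.87 to 29.1 between different mice of its group. The Mouse1586 stimulated pair, at 8.1, lay below its group's 12.65 to 21.63, and the pairs of Mouse1557 (sham) and Mouse1592 (stimulated) lay inside theirs, 11.58 to 33.76 and 13.7 to 77.01. These values come from raw counts and grow with depth at the same relative difference. The Mouse1565 sham pair together held 49652899 counts, against 18753697 and 17665303 in the other sham samples of its group. Thy1, part of the transgene cassette, ran from 253 to 403 CPM in wild-type samples and from 1034 to 2506 CPM in T41B samples, without overlap. All 12 microglia and macrophage markers and all 10 homeostatic microglia markers were present and tested, while all 10 markers of blood monocytes and neutrophils stayed under 1 CPM in every sample, as did 5 of 8 markers of border macrophages (Lyve1, Cbr2, Cd209f, Clec10a and Ms4a7). A set of 6 samples stood apart by 9 choroid plexus markers, whose summed level was 115 to 1224 CPM in them (stimulated slices of Mouse1509, Mouse1513, Mouse1551 and Mouse1553 and sham slices of Mouse1551 and Mouse1553) and 14.4 to 29.9 CPM elsewhere. All 6 came from vehicle-treated mice, and leaving them out leaves 2 mice in 3 of the 4 vehicle groups (all but wild-type sham slices). They are all slices of batch G, which holds T41B mice only, and the stimulated slices of batch E, which holds wild-type mice only, so choroid plexus content and these batches cannot be told apart in that fit. Vehicle values of the 10 genes are given with and without them between genotypes and after stimulation, and counts over lists of other genes only with them. The labels name 8 batches, each with 1 treatment, so treatment and batch cannot be told apart. In whole slices, fewer cells of a type and less RNA per cell cannot be told apart either.

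The 10 genes spanned a wide range of abundance. Divided by the exon length of the gene, Apoe was the most abundant in wild-type sham slices under vehicle, at 462 ± 98.8 CPM per kilobase (SD, n = 4), followed by Clu at 149 ± 19.3, Bin1 at 48.3 ± 3.74 and Tyrobp at 12.3 ± 2.78. Spi1 (1.88 ± 0.245), Inpp5d (1.78 ± 0.205), Plcg2 (1.75 ± 0.178) and Trem2 (1.62 ± 0.382) came next, and neighbours in that run overlapped between mice. Cd33 (0.84 ± 0.138) and Abi3 (0.437 ± 0.146) were the lowest. In T41B sham slices under vehicle, Tyrobp reached 59.5 ± 16 CPM per kilobase and overlapped Bin1 at 51.8 ± 6.93, and Trem2, at 9.27 ± 2.64, came next and overlapped Spi1 at 5.69 ± 2.18. In stimulated slices Inpp5d ranked directly above Abi3, the last, by mean in all 4 combinations of genotype and treatment, but it overlapped Cd33, the gene above it, in all 4, and Abi3 in wild-type vehicle slices. Abi3 counts were low throughout, at group means from 0.839 to 4.73 CPM, and its exons overlap those of Zfp652, Phospho1 and Gngt2 on the opposite strand, so reads of these genes may be mixed where strand was not used in counting.

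**Figure D1:**
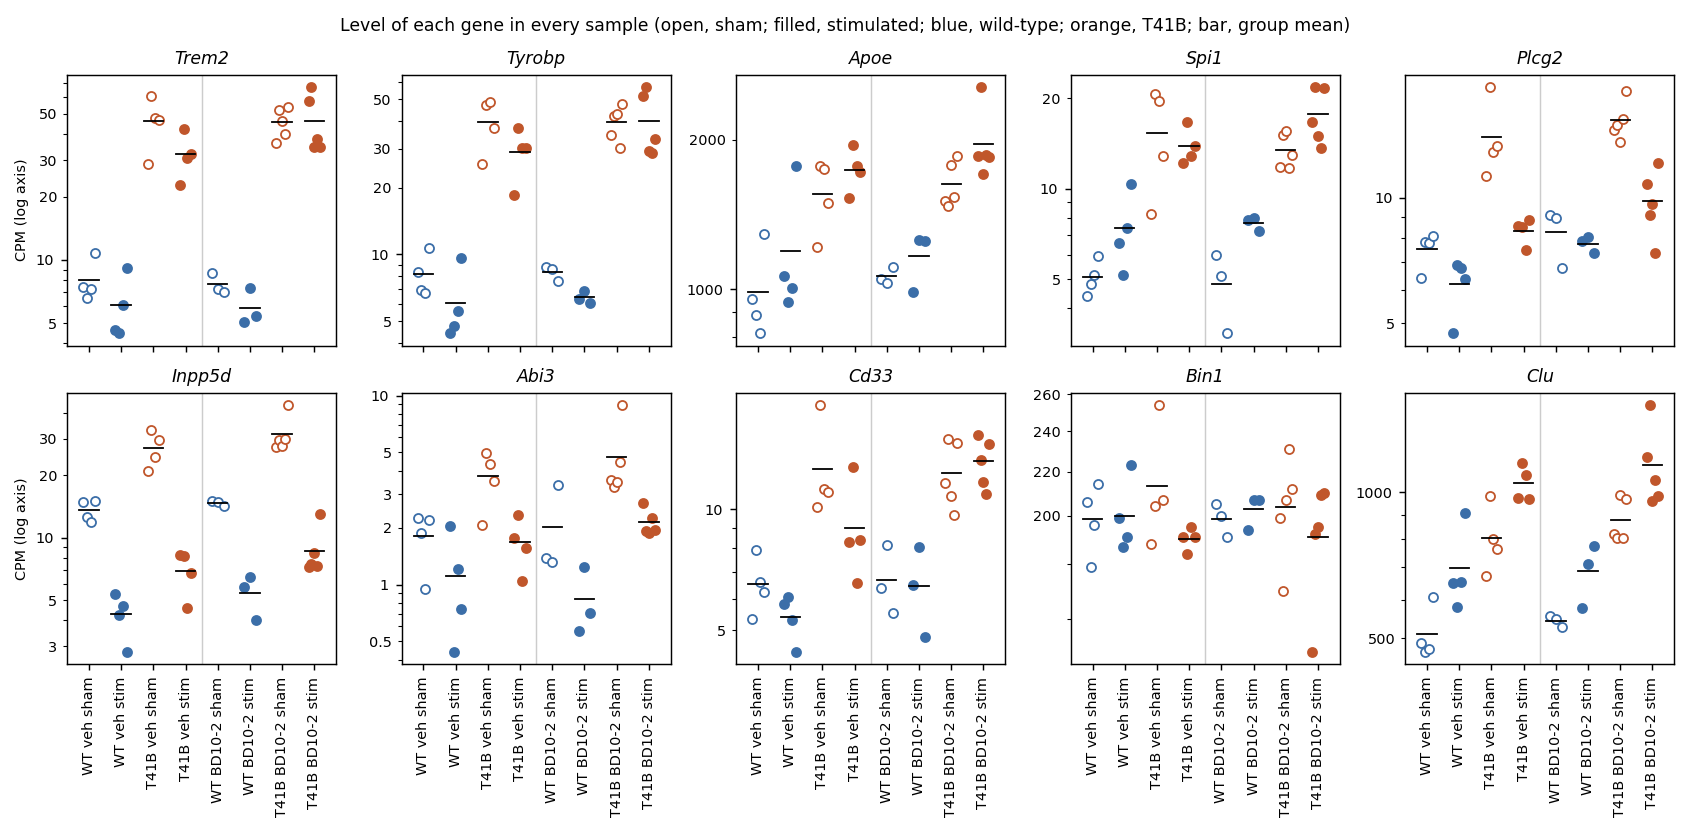
Level in CPM (log axis, one panel per gene) of each of the 10 genes in every sample of the 8 groups. Open points are sham and filled points stimulated slices, blue is wild-type and orange T41B, and bars are group means. Trem2 and Tyrobp lie higher in all T41B than in all wild-type samples, Inpp5d lies lower in stimulated than in sham slices of the same mice, and Bin1 stays between 149 and 254 CPM.

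RefSeq promoter windows on GRCm38.p6 were at hand for 5 of the 10 genes (Inpp5d, Plcg2, Trem2, Cd33 and Apoe). The 250 bases before a RefSeq start are shown for 4 of them: Inpp5d and Plcg2, which both fell after stimulation in T41B slices, and Trem2 and Cd33, which did not pass that test. With the mouse as a block both of the latter were called lower in T41B vehicle slices, as Trem2 was with batch as a covariate. The RefSeq start is the first base of the GENCODE gene in Inpp5d and Trem2 and lies just upstream of it in Plcg2, whereas the Cd33 window precedes a start inside the GENCODE gene, far downstream of its first base. Capitals mark GAGGAA, the core letters of the PU box bound by PU.1, or its reverse complement; no other motif was searched. The windows are chr1:87620062-87620311 (plus strand) for Inpp5d, chr8:117498025-117498274 (plus) for Plcg2, chr17:48346151-48346400 (plus) for Trem2 and chr7:43533172-43533421 (minus) for Cd33.
Inpp5d: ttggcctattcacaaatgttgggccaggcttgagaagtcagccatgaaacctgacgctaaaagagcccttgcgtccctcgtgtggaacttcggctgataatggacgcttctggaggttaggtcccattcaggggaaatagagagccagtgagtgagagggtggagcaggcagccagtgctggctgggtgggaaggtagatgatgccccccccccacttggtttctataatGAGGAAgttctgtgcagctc
Plcg2: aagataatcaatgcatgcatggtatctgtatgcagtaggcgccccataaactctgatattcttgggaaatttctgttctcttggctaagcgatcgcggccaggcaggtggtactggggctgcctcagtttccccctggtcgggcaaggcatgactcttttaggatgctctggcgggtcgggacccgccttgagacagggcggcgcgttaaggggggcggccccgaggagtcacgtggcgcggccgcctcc
Trem2: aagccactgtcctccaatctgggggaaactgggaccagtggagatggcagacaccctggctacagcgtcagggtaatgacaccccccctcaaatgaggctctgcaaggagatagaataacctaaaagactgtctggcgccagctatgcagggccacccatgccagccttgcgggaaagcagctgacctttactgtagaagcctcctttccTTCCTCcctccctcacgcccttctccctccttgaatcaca
Cd33: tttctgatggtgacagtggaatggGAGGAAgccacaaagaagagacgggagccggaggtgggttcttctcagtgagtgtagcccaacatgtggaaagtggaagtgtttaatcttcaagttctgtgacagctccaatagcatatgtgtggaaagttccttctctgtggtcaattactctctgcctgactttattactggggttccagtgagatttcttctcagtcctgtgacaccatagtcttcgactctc
The letters begin 20 bases before the RefSeq start in Inpp5d, 226 in Cd33 and, on the other strand, 40 in Trem2, and are not found in the Plcg2 window. Apoe, which was not called after stimulation, has 3 windows, of which 2 hold the letters, 250 and 132 bases before their starts. Over all 32851 windows of this length, 23.3% hold them on either strand. The Plcg2 window also differs in base content, with 17 CG pairs against 5 in Inpp5d, 4 in Trem2 and 3 in Cd33; the median over all windows is 6, and the upper quartile 16.

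The genotype comparisons set T41B against wild-type mice within each treatment and kind of slice. Trem2 was 5.29 to 7.90-fold higher in T41B mice over the 4 comparisons and Tyrobp, its adaptor, was also called higher in all 4. Spi1, Cd33, Clu and Apoe were called higher in all 4 at smaller ratios, and none of the 10 was called lower in any. Calls rest on an adjusted p under 0.05 in edgeR. In sham slices 8 of 10 were called under vehicle, where 6.24% of all genes were called in either direction, and 8 under BD10-2, where 5.45% were. In stimulated slices 6 were called under vehicle (5.79% of all genes) and 8 under BD10-2 (10.6%). The median log2 fold change of the 10 genes was 0.97 and 1.0 in sham slices and 0.63 and 0.90 in stimulated slices under vehicle and BD10-2, against 0.00, 0.01, -0.03 and -0.02 over all genes tested. With batch as a covariate, 5 of 10 were called in sham and 2 in stimulated slices under vehicle: Apoe, Cd33 and Clu were lost in both and Spi1 in the latter (edgeR adjusted p 0.1 to 0.271). The log2 fold changes in sham and stimulated slices became 0.37 and 0.30 for Apoe (from 0.66 and 0.54), 0.40 and 0.35 for Clu (from 0.66 and 0.58) and 0.85 and 0.64 for Cd33 (from 0.95 and 0.73), and that of Spi1 in stimulated slices became 0.45 (from 0.92). Under vehicle only batches A and C hold both genotypes, with 1 mouse of each, so the vehicle genotype difference in the batch fit rests on them. In that fit 1.81% and 3.92% of all genes were called. Under BD10-2 it lost Inpp5d and Abi3 in stimulated slices (edgeR adjusted p 0.107 and 0.118) and gained Abi3 in sham slices (log2 fold change 1.42, edgeR adjusted p = 0.0374). Under vehicle, 5 of 10 were called in sham (1.28% of all genes) and 2 in stimulated slices (1.17%) without the samples rich in choroid plexus markers. Those samples all come from the other vehicle batches, E and G, so this fit and the batch fit are not separate checks.

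**Figure D2:**
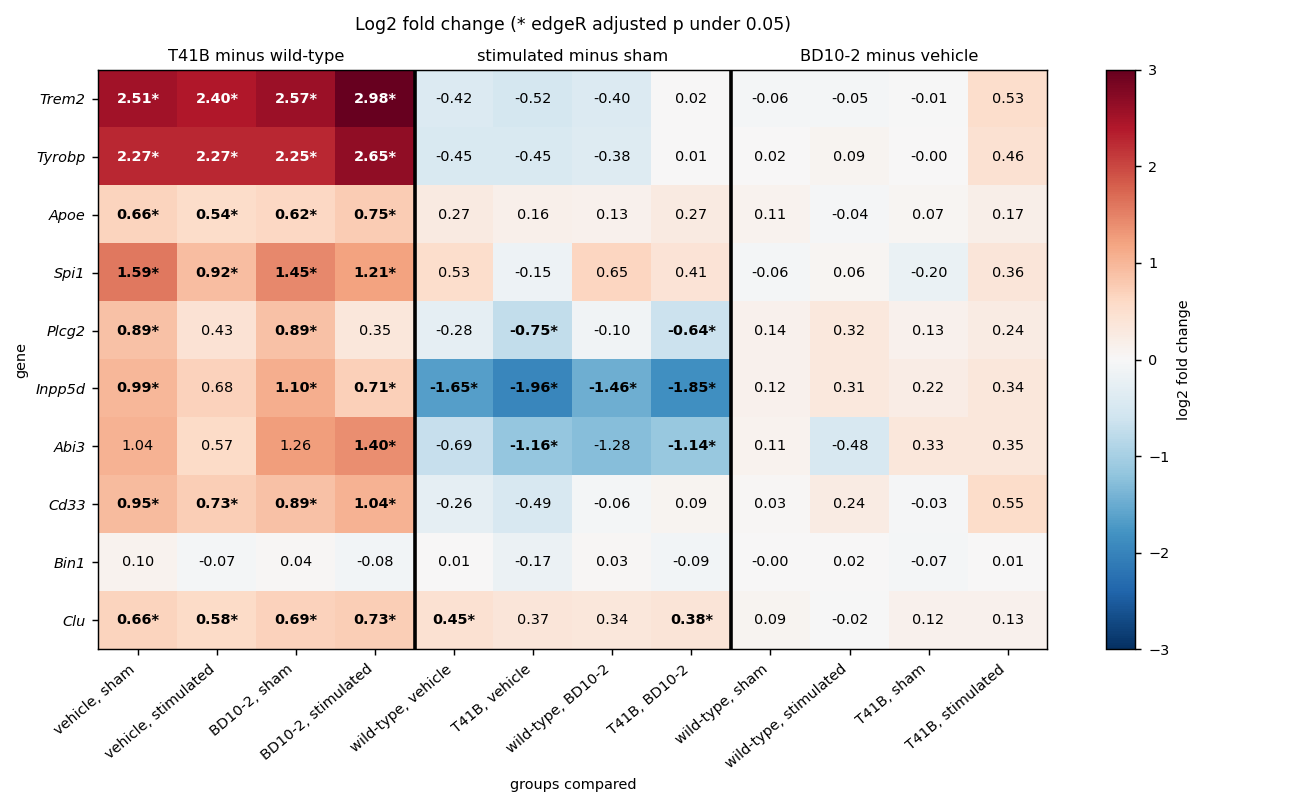
Log2 fold changes of the 10 genes (rows) in 12 comparisons (columns), coloured from blue (lower) to red (higher), with an asterisk where the edgeR adjusted p is under 0.05. The T41B columns are red for every gene but Bin1, the stimulation columns hold the blue row of Inpp5d (-1.46 to -1.96), and the BD10-2 columns hold no asterisk.

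Trem2 (chr17:48346401-48354147, plus strand, GRCm38 with GENCODE M21) encodes the lipid-sensing receptor. In sham slices under vehicle it stood at 7.47, 6.56, 7.29 and 10.8 CPM in the 4 wild-type mice and at 28.7, 60.4, 47.7 and 46.7 CPM in the 4 T41B mice. Under BD10-2 the sham values were 8.66, 7.26 and 7.04 CPM in wild-type mice and 36.3, 52.3, 46.2, 40 and 53.9 CPM in T41B mice. Every T41B sample lay above every wild-type sample, and the lowest T41B mouse under vehicle, Mouse1510, held the lowest level of the T41B mice in either kind of vehicle slice. The log2 fold change was 2.51 (edgeR adjusted p = 1.72e-07 with SE 0.25) under vehicle and 2.57 (edgeR adjusted p = 4.18e-07 with SE 0.27) under BD10-2. In stimulated slices it was 2.40 (edgeR adjusted p = 4.8e-07 with SE 0.26) and 2.98 (edgeR adjusted p = 6.2e-08 with SE 0.28), again without overlap. Within batches that hold both genotypes, the difference on the log2(CPM + 1) scale ran from 1.71 to 2.77.

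Tyrobp (chr7:30413760-30417585, plus), the signalling adaptor of TREM2, was likewise higher in T41B mice. It stood at 8.36, 6.92, 6.73 and 10.7 CPM in wild-type and at 25.6, 47, 48.9 and 37.2 CPM in T41B sham slices under vehicle. The groups did not overlap there or in the other 3 comparisons. Its log2 fold changes were 2.27 (edgeR adjusted p = 6.06e-07 with SE 0.26) and 2.25 (edgeR adjusted p = 2.68e-06 with SE 0.27) in sham slices under vehicle and BD10-2, and 2.27 and 2.65 in stimulated slices. The within-batch differences ran from 1.56 to 2.51 on the log2(CPM + 1) scale. Both genes were called in every alternative fit of these 4 comparisons, including the fit without the 6 samples rich in choroid plexus markers, where the vehicle values were 2.23 and 1.88 for Trem2 and 1.94 and 1.72 for Tyrobp in sham and stimulated slices.

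Spi1 (chr2:91082390-91115756, plus) encodes PU.1. In sham slices under vehicle it stood at 4.39, 4.83, 5.16 and 5.95 CPM in wild-type mice and at 8.25, 20.7, 19.5 and 12.8 CPM in T41B mice. The groups did not overlap, and the T41B mice spread over a wider range, with Mouse1510 again the lowest. The fitted log2 fold change was 1.59 (edgeR adjusted p = 3.56e-05 with SE 0.23) under vehicle and 1.45 (edgeR adjusted p = 0.00022 with SE 0.24) under BD10-2. In stimulated slices it was 0.92 (edgeR adjusted p = 0.0106 with SE 0.22) and 1.21 (edgeR adjusted p = 0.000582 with SE 0.24). Within batches the difference ran from 0.39 to 1.69 on the log2(CPM + 1) scale. In stimulated slices under vehicle the call was lost without Mouse1513 (log2 fold change 0.78, edgeR adjusted p = 0.067) and without the samples rich in choroid plexus markers (0.58, edgeR adjusted p = 0.357). Without those samples it was still called in sham slices (1.06, edgeR adjusted p = 0.0113).

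The intracellular signalling genes were higher in T41B sham slices by smaller ratios. Plcg2 (chr8:117498291-117635142, plus), a phospholipase that produces second messengers below immune receptors, stood at 6.4, 7.85, 7.8 and 8.08 CPM in wild-type and at 11.3, 18.5, 12.9 and 13.3 CPM in T41B sham slices under vehicle. Inpp5d (chr1:87620312-87720507, plus), which removes a phosphate from the lipid messenger PIP3, stood at 14.8, 12.6, 11.9 and 15 CPM and at 20.9, 33.1, 24.4 and 29.7 CPM in the same mice. Neither gene overlapped between genotypes in sham slices of either treatment. The log2 fold change of Plcg2 was 0.89 (SE 0.15) under either treatment, with edgeR adjusted p of 0.000213 and 0.000388. That of Inpp5d was 0.99 (edgeR adjusted p = 0.00186 with SE 0.20) under vehicle and 1.10 (edgeR adjusted p = 0.00101 with SE 0.21) under BD10-2. In stimulated slices Plcg2 was not called, at 0.43 (95% interval 0.12 to 0.74) under vehicle and 0.35 (0.03 to 0.66) under BD10-2. Inpp5d was at 0.68 (edgeR adjusted p = 0.066) under vehicle and was called under BD10-2 at 0.71 (edgeR adjusted p = 0.0355). That call was lost without any one of Mouse1565, Mouse1570, Mouse1586 and Mouse1592 (log2 fold change 0.50 to 0.79, edgeR adjusted p 0.0547 to 0.232), and under vehicle a call was gained without Mouse1553 (0.84, edgeR adjusted p = 0.0243) and by DESeq2 (0.71, adjusted p = 0.0243). Leaving out the samples rich in choroid plexus markers, the vehicle values were 0.72 (edgeR adjusted p = 0.0176) and 0.41 (edgeR adjusted p = 0.39) for Plcg2 and 0.91 (edgeR adjusted p = 0.0428) and 0.98 (edgeR adjusted p = 0.132) for Inpp5d in sham and stimulated slices.

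Abi3 (chr11:95830074-95842476, minus), the actin regulator, was the least abundant of the 10 and had the widest errors. In sham slices under vehicle it stood at 2.25, 1.87, 0.943 and 2.19 CPM in wild-type and at 2.06, 4.99, 4.36 and 3.52 CPM in T41B mice, with Mouse1510 inside the wild-type range. The log2 fold changes were 1.04 (edgeR adjusted p = 0.113 with SE 0.39) and 1.26 (edgeR adjusted p = 0.0591 with SE 0.40) in sham slices and 0.57 (SE 0.42) in stimulated slices under vehicle. It was called in stimulated slices under BD10-2, at 1.40 (edgeR adjusted p = 0.0398 with SE 0.44). Leaving out any one of 6 of the 8 mice there ended the call (Mouse1563, Mouse1564, Mouse1565, Mouse1570, Mouse1572 and Mouse1586; log2 fold change 1.20 to 1.44, edgeR adjusted p 0.0554 to 0.222). In sham slices a call was gained under vehicle without Mouse1510 (1.23, edgeR adjusted p = 0.0484) and under BD10-2 without Mouse1563 (1.37, edgeR adjusted p = 0.0481) or Mouse1590 (1.80, edgeR adjusted p = 0.0255). With a replicate block for the mouse, the BD10-2 value was called in sham slices (1.35, limma-voom adjusted p = 0.0225) and not in stimulated slices (1.30, limma-voom adjusted p = 0.0973), and DESeq2 also called the sham value (1.25, adjusted p = 0.0248). The vehicle values were 0.63 (edgeR adjusted p = 0.888) in sham and 0.76 (edgeR adjusted p = 0.615) in stimulated slices without the samples rich in choroid plexus markers.

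Cd33 (chr7:43524216-43544428, minus), the sialic acid receptor, stood at 5.34, 7.93, 6.6 and 6.24 CPM in wild-type and at 10.1, 18.1, 11.2 and 11 CPM in T41B sham slices under vehicle. Mouse1551 lay well above the other T41B mice, and the groups did not overlap in any of the 4 comparisons. The log2 fold change was 0.95 (edgeR adjusted p = 0.00338 with SE 0.21) and 0.89 (edgeR adjusted p = 0.00881 with SE 0.21) in sham slices under vehicle and BD10-2. In stimulated slices it was 0.73 (edgeR adjusted p = 0.0309 with SE 0.21) and 1.04 (edgeR adjusted p = 0.000994 with SE 0.21). Without the samples rich in choroid plexus markers the vehicle values were 0.71 (edgeR adjusted p = 0.108) and 0.78 (edgeR adjusted p = 0.145), neither called. The call in stimulated vehicle slices was also lost without any one of Mouse1509, Mouse1522, Mouse1524 and Mouse1551 (0.51 to 0.77, edgeR adjusted p 0.0544 to 0.145), and that in sham BD10-2 slices without Mouse1565 (0.85, edgeR adjusted p = 0.0692) or Mouse1590 (0.78, edgeR adjusted p = 0.094).

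The lipid carriers were the most abundant of the 10 genes and differed between genotypes by smaller ratios. Apoe (chr7:19696109-19699188, minus) stood at 956, 888, 815 and 1293 CPM in wild-type and at 1218, 1773, 1744 and 1491 CPM in T41B sham slices under vehicle. The highest wild-type mouse, Mouse1524, lay above the lowest T41B mouse, Mouse1510. Clu (chr14:65968483-65981547, plus) stood at 489, 469, 475 and 609 CPM and at 672, 982, 801 and 765 CPM in the same slices, without overlap. On the log2 scale the difference of Apoe was 0.66 (edgeR adjusted p = 0.0143 with SE 0.17) and 0.62 (edgeR adjusted p = 0.0321 with SE 0.17) in sham slices and 0.54 (edgeR adjusted p = 0.049 with SE 0.17) and 0.75 (edgeR adjusted p = 0.00389 with SE 0.18) in stimulated slices under vehicle and BD10-2. That of Clu was 0.66 (edgeR adjusted p = 0.00335 with SE 0.14) and 0.69 (edgeR adjusted p = 0.00358 with SE 0.15) in sham slices and 0.58 and 0.73 in stimulated slices.

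Within batches, Apoe differed by 0.20 to 0.74 in sham slices and by -0.04 to 0.68 in stimulated slices on the log2(CPM + 1) scale, and Clu by 0.33 to 0.88 and by 0.09 to 0.65. The low ends all came from batch C, which holds the wild-type Mouse1524 and the T41B Mouse1579. The Apoe call was lost without any one of 4 mice in sham vehicle slices (Mouse1509, Mouse1522, Mouse1551 and Mouse1553; log2 fold change 0.57 to 0.64, edgeR adjusted p 0.0576 to 0.0758) and of 6 in stimulated vehicle slices (Mouse1509, Mouse1513, Mouse1522, Mouse1551, Mouse1553 and Mouse1579; 0.44 to 0.55, edgeR adjusted p 0.0793 to 0.199). Under BD10-2 it was lost without any one of 5 mice in sham slices (Mouse1564, Mouse1565, Mouse1571, Mouse1590 and Mouse1592; 0.56 to 0.65, edgeR adjusted p 0.0551 to 0.132) and without Mouse1565 in stimulated slices (log2 fold change 0.66, edgeR adjusted p = 0.0551). The Clu call was lost in stimulated vehicle slices without Mouse1513 (0.50, edgeR adjusted p = 0.0597). Without the samples rich in choroid plexus markers, the vehicle log2 fold changes of Apoe were 0.46 (edgeR adjusted p = 0.444) in sham and 0.24 (edgeR adjusted p = 0.717) in stimulated slices, and those of Clu were 0.50 (edgeR adjusted p = 0.169) and 0.33 (edgeR adjusted p = 0.502).

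Bin1 (chr18:32377230-32435737, plus), the membrane-bending protein, was not called in any comparison. In sham slices under vehicle it stood at 206, 179, 196 and 214 CPM in wild-type and at 188, 204, 254 and 207 CPM in T41B mice, and the groups overlapped in all 4 genotype comparisons. On the log2 scale the fold change was 0.10 (95% interval -0.10 to 0.30) and 0.04 (-0.17 to 0.24) in sham slices and -0.07 (-0.27 to 0.13) and -0.08 (-0.29 to 0.12) in stimulated slices. The vehicle values were 0.00 and -0.10 without the samples rich in choroid plexus markers. Its exons overlap those of the noncoding A830052D11Rik on the opposite strand. Among 15 genes of its family and of endocytosis, 2, 0, 1 and 1 were called higher in sham vehicle, stimulated vehicle, sham BD10-2 and stimulated BD10-2 slices, and none lower, where 6.24%, 5.79%, 5.45% and 10.6% of all genes were called in either direction. Bin2, a relative of Bin1 expressed in leukocytes, was called in 3 of the 4, with log2 fold changes of 1.18 (SE 0.22) and 1.06 (SE 0.23) in sham slices and 0.77 (SE 0.26, not called) and 1.50 (SE 0.27) in stimulated slices.

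Most called partners of the 10 genes were higher in T41B mice. The share of all genes called in either direction, beside which these lists are to be read, was 6.24%, 5.79%, 5.45% and 10.6% in sham vehicle, stimulated vehicle, sham BD10-2 and stimulated BD10-2 slices. Of 17 tested genes of TREM2 and ITAM signalling, 12, 7, 12 and 11 were higher in T41B mice by the test, in that order of groups, and none lower, among them the phosphatase Ptpn6 (SHP-1; log2 fold change 1.08 to 1.98) and the exchange factor Vav1 (1.30 to 1.48). The 14 tested partners and targets of PU.1 had 12, 9, 10 and 12 called higher and none lower, with its partner factor Irf8 at 1.82 to 2.86, although 4 of these genes (Csf1r, Itgam, Laptm5 and Ptprc) also stand among the microglia and macrophage markers. Of 10 tested Siglecs and CD33 partners, 4, 2, 4 and 4 were called higher, with Siglech at 0.89 to 1.22. The 18 tested lipoprotein partners of APOE had 3 or 4 called higher in each comparison, with the enzyme Lcat at 0.48 to 0.52. Of 28 tested genes at other risk loci, 4 to 7 were called higher and at most 1 lower, the protease Ctsh (1.19 to 2.08) and progranulin, Grn (1.0 to 1.28), in all 4. Of 12 actin regulators beside ABI3, 3 or 4 were called higher and at most 1 lower, with Nckap1l (0.88 to 1.37), the hematopoietic subunit of the same complex.

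The microglial marker levels moved with genotype. The summed level of the 12 microglia and macrophage markers was 315 to 418 CPM in wild-type and 721 to 1396 CPM in T41B sham slices under vehicle, and 339 to 412 and 900 to 1260 CPM under BD10-2. All 12 passed the test as higher in T41B mice in 3 of the 4 comparisons and 10 in stimulated vehicle slices, with medians of 1.40 to 1.68 on the log2 scale. The log2 fold changes of Trem2 and Tyrobp lay above these medians, those of Inpp5d, Plcg2 and Cd33 below them. Of the 10 homeostatic microglia markers, 7, 4, 6 and 7 were called higher, with medians of 0.95, 0.26, 0.87 and 1.02. Beside these medians, the values of Cd33 lay at or above all 4, those of Inpp5d above all but that in stimulated BD10-2 slices, and those of Plcg2 above those in stimulated vehicle and sham BD10-2 slices only. The summed level of the 12 astrocyte markers, beside which Apoe and Clu may be read, was 7129 to 7884 CPM in wild-type and 7352 to 9766 CPM in T41B sham slices under vehicle, and 4, 2, 3 and 8 of the 12 were called higher. Their part in the differences of the 10 genes was not tested.

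The stimulation comparisons set stimulated slices against separate sham slices of the same genotype and treatment. Inpp5d fell in all 4 combinations, to 0.26 to 0.36 of its sham level. Plcg2 and Abi3 fell in T41B slices under either treatment, and Clu rose in wild-type slices under vehicle and T41B slices under BD10-2. The other 6 genes passed the test in none. Of the 10 genes, 1 was called lower and 1 higher in wild-type vehicle slices, where 4.10% and 8.21% of all genes were. In T41B vehicle slices 3 were called lower (9.83% of all genes) and 0 higher (11.7%). Under BD10-2, 1 was called lower (2.58%) and 0 higher (6.29%) in wild-type slices, and 3 lower (9.52%) and 1 higher (13.3%) in T41B slices. A fit with the mouse as a replicate block, which pairs the slices of a mouse, called 7 of the 10 in T41B vehicle slices, adding Clu as higher and Trem2, Tyrobp and Cd33 as lower, and a fit with batch as a covariate called 6. The share of all genes called in either direction there was 21.5% in the fit without pairing, 32.4% with the block and 25.1% with batch. In the fit without the samples rich in choroid plexus markers, 1 of the 10 was called in T41B vehicle slices (6.02% of all genes) and 3 in wild-type vehicle slices (13.0%). The 4 comparisons share no sample with each other, though they use the same samples as the genotype comparisons, and 14 of the 18 mice gave both slices.

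Inpp5d, the SHIP1 phosphatase gene, had the largest change of the 10. In vehicle-treated wild-type mice it stood at 14.8, 12.6, 11.9 and 15 CPM in sham and at 5.37, 4.24, 4.71 and 2.83 CPM in stimulated slices of the same mice in the same order. In vehicle-treated T41B mice it stood at 20.9, 33.1, 24.4 and 29.7 CPM and at 8.22, 8.18, 4.57 and 6.77 CPM. Under BD10-2 it ran from 14.3 to 15 CPM and from 4.02 to 6.45 CPM in wild-type mice, and from 27.3 to 43.5 CPM and from 7.22 to 13 CPM in T41B mice. Every stimulated sample lay below every sham sample of its combination, and every stimulated T41B slice held less than every wild-type sham slice of the same treatment. The log2 fold change was -1.65 (edgeR adjusted p = 2.63e-06 with SE 0.22) in wild-type and -1.96 (edgeR adjusted p = 3.91e-08 with SE 0.21) in T41B slices under vehicle. Under BD10-2 it was -1.46 (edgeR adjusted p = 0.000107 with SE 0.24) and -1.85 (edgeR adjusted p = 4.94e-09 with SE 0.18). The stimulated slice was lower in 14 of 14 mice, by 1.09 to 2.19 on the log2(CPM + 1) scale. Inpp5d was called in every alternative fit of these comparisons, and without the samples rich in choroid plexus markers its vehicle values were -1.83 and -1.75 in wild-type and T41B slices.

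**Figure D3:**
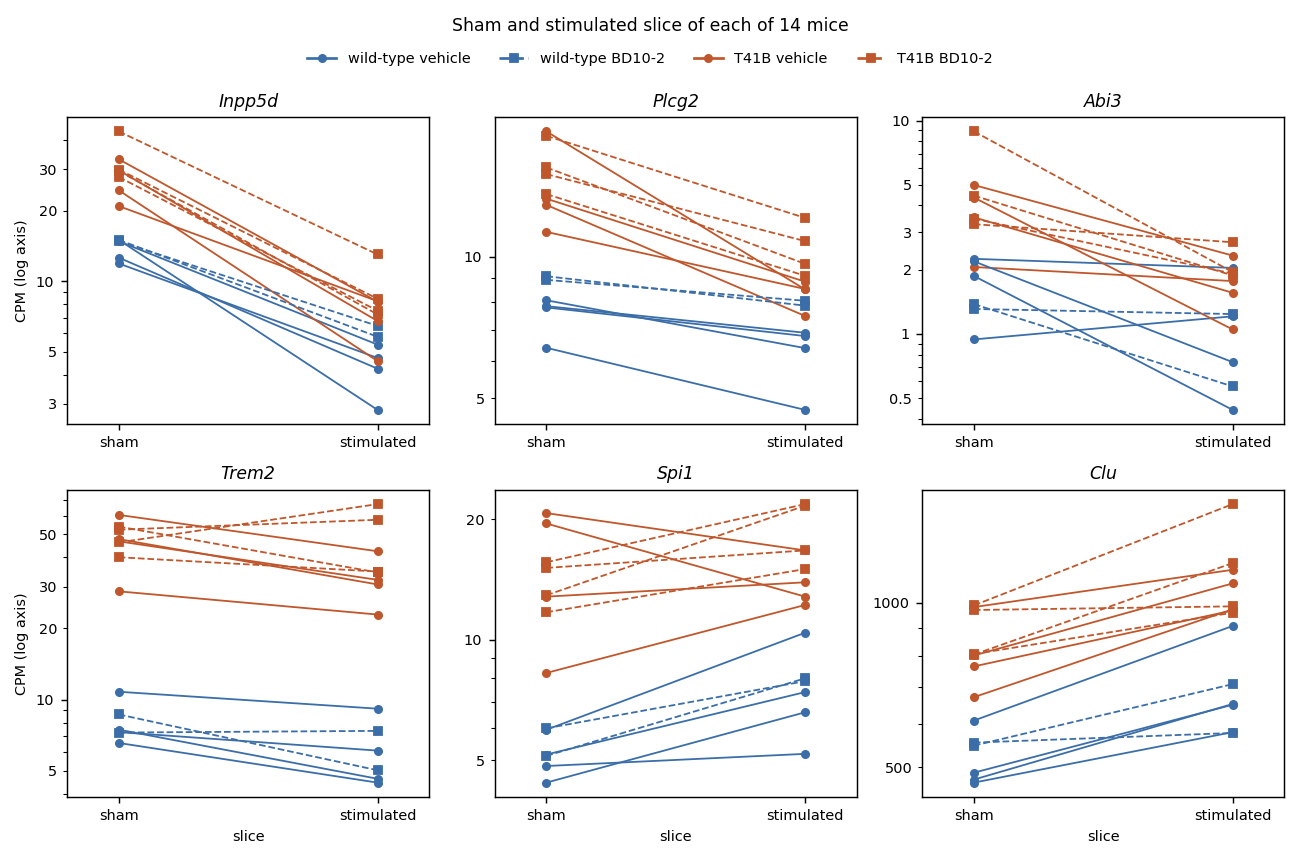
Levels in CPM (log axis) in the sham and the stimulated slice of each of 14 mice, joined by a line, for 6 of the genes. Blue is wild-type and orange T41B, and solid lines with circles are vehicle and dashed lines with squares BD10-2. All lines of Inpp5d and Plcg2 slope down and all lines of Clu slope up, while those of Trem2 and Spi1 go both ways.

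Plcg2 stood at 11.3, 18.5, 12.9 and 13.3 CPM in sham and at 8.54, 8.52, 7.48 and 8.85 CPM in stimulated slices of vehicle-treated T41B mice. The corresponding wild-type values were 6.4, 7.85, 7.8 and 8.08 CPM and 4.72, 6.89, 6.78 and 6.39 CPM. Sham and stimulated T41B slices did not overlap under either treatment, and the wild-type slices overlapped under both. The log2 fold change in T41B slices was -0.75 (edgeR adjusted p = 0.000451 with SE 0.15) under vehicle and -0.64 (edgeR adjusted p = 0.000487 with SE 0.13) under BD10-2, against -0.28 (95% interval -0.60 to 0.03) and -0.10 (-0.45 to 0.25) in wild-type slices. The difference between genotypes in this response was -0.46 (95% interval -0.90 to -0.03, edgeR adjusted p = 0.556) under vehicle and -0.54 (-0.98 to -0.10, edgeR adjusted p = 0.962) under BD10-2 and was not called. The stimulated slice was lower in 14 of 14 mice, by 0.13 to 1.03 on the log2(CPM + 1) scale. Without the samples rich in choroid plexus markers, the value in vehicle-treated T41B slices was -0.50 and was not called (edgeR adjusted p = 0.121), and that in wild-type slices was -0.20. The difference between genotypes under vehicle was then -0.31 (edgeR adjusted p = 0.923).

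Abi3 ran from 2.06 to 4.99 CPM in sham and from 1.05 to 2.33 CPM in stimulated slices of vehicle-treated T41B mice, which overlapped, and from 3.27 to 8.9 CPM and from 1.88 to 2.69 CPM under BD10-2, which did not. The fitted log2 fold change was -1.16 (edgeR adjusted p = 0.0316 with SE 0.39) and -1.14 (edgeR adjusted p = 0.0134 with SE 0.34). In wild-type slices it was -0.69 (edgeR adjusted p = 0.31 with SE 0.42) under vehicle and -1.28 (edgeR adjusted p = 0.098 with SE 0.48) under BD10-2. The vehicle call in T41B slices was lost without any one of Mouse1551, Mouse1553 and Mouse1579 (-1.18 to -0.90, edgeR adjusted p 0.0812 to 0.184) and without the samples rich in choroid plexus markers (-0.75, edgeR adjusted p = 0.449; -0.88 in wild-type slices), and the BD10-2 call without Mouse1592 (-0.74, edgeR adjusted p = 0.133).

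Clu, the clusterin gene, moved the other way. In vehicle-treated wild-type mice it stood at 489, 469, 475 and 609 CPM in sham and at 651, 580, 653 and 907 CPM in stimulated slices, and in T41B mice at 672, 982, 801 and 765 CPM and at 973, 1149, 1085 and 968 CPM. Sham and stimulated ranges overlapped in both, yet the stimulated slice was higher in 14 of 14 mice, by 0.02 to 0.61 on the log2(CPM + 1) scale. The log2 fold change was 0.45 (edgeR adjusted p = 0.0333 with SE 0.14) in wild-type slices and 0.37 (edgeR adjusted p = 0.0549 with SE 0.14) in T41B slices under vehicle. Under BD10-2 it was 0.34 (edgeR adjusted p = 0.206 with SE 0.16) in wild-type and 0.38 (edgeR adjusted p = 0.0279 with SE 0.13) in T41B slices. The wild-type call was lost without any one of its 4 mice (Mouse1509, Mouse1513, Mouse1522 and Mouse1524; 0.39 to 0.49, edgeR adjusted p 0.0595 to 0.103), and the T41B call under BD10-2 without Mouse1557, Mouse1563 or Mouse1564 (0.30 to 0.35, edgeR adjusted p 0.0687 to 0.106). With a replicate block for the mouse, the vehicle T41B value was called too (0.38, limma-voom adjusted p = 0.00617), as it was with batch as a covariate, RLE size factors, the second library of same-label pairs and DESeq2 (0.38 to 0.41, adjusted p 0.0107 to 0.0393). Its vehicle values were 0.60 (edgeR adjusted p = 0.0141) in wild-type and 0.43 (edgeR adjusted p = 0.196) in T41B slices without the samples rich in choroid plexus markers. Apoe was higher in the stimulated slice in 12 of 14 mice but was not called, with log2 fold changes of 0.13 to 0.27, and of 0.48 and 0.26 under vehicle without those samples.

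The receptor and its adaptor were not called in the fit without pairing. Trem2 had log2 fold changes of -0.42 (95% interval -0.96 to 0.13) in wild-type and -0.52 (-1.0 to -0.05) in T41B slices under vehicle, and of -0.40 (-1.0 to 0.21) and 0.02 (-0.40 to 0.44) under BD10-2. It was lower in the stimulated slice in all 8 vehicle-treated mice with both slices and in 3 of 6 treated with BD10-2. With a replicate block for the mouse, the vehicle T41B values of Trem2 (-0.52, adjusted p = 0.0188), Tyrobp (-0.46, adjusted p = 0.0339) and Cd33 (-0.50, adjusted p = 0.00888) were called by limma-voom, and those of the other combinations were not. With batch as a covariate Trem2 and Tyrobp were called there too (-0.50 and -0.44, edgeR adjusted p 0.0115 and 0.0126), and Tyrobp in wild-type vehicle slices (-0.47, edgeR adjusted p = 0.0346). When the samples rich in choroid plexus markers were left out, the vehicle values in wild-type and T41B slices were -0.10 and -0.46 for Trem2, -0.15 and -0.37 for Tyrobp and -0.42 and -0.34 for Cd33, none called. In T41B mice under BD10-2, Trem2 stood at 52.3, 46.2, 40 and 53.9 CPM in the sham slices of Mouse1563, Mouse1564, Mouse1570 and Mouse1592 and at 57.6, 67.1, 34.8 and 34.5 CPM in their stimulated slices, so 2 mice went up and 2 down. The 2 mice that went up form batch H.

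Spi1, the PU.1 gene, had log2 fold changes of 0.53 (edgeR adjusted p = 0.146 with SE 0.24) in wild-type and -0.15 (edgeR adjusted p = 0.682 with SE 0.22) in T41B slices under vehicle, and of 0.65 (edgeR adjusted p = 0.13 with SE 0.26) and 0.41 (edgeR adjusted p = 0.135 with SE 0.19) under BD10-2. It was higher in the stimulated slice in 12 of 14 mice. The 2 exceptions were Mouse1551 and Mouse1553, the vehicle-treated T41B mice of batch G, whose slices were rich in choroid plexus markers. The replicate block called it in T41B slices under BD10-2 (0.43, limma-voom adjusted p = 0.0288) and, as a fixed effect in edgeR, in wild-type vehicle slices (0.52, adjusted p = 0.047). Without the samples rich in choroid plexus markers it was called in wild-type vehicle slices (0.79, edgeR adjusted p = 0.024), and the T41B vehicle value changed sign (0.30, edgeR adjusted p = 0.562). Bin1 had log2 fold changes of 0.01 (95% interval -0.19 to 0.21) and -0.17 (-0.36 to 0.03) under vehicle and 0.03 (-0.20 to 0.26) and -0.09 (-0.27 to 0.09) under BD10-2, in wild-type and T41B slices, and 0.05 and -0.05 under vehicle without those samples.

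**Figure D4:**
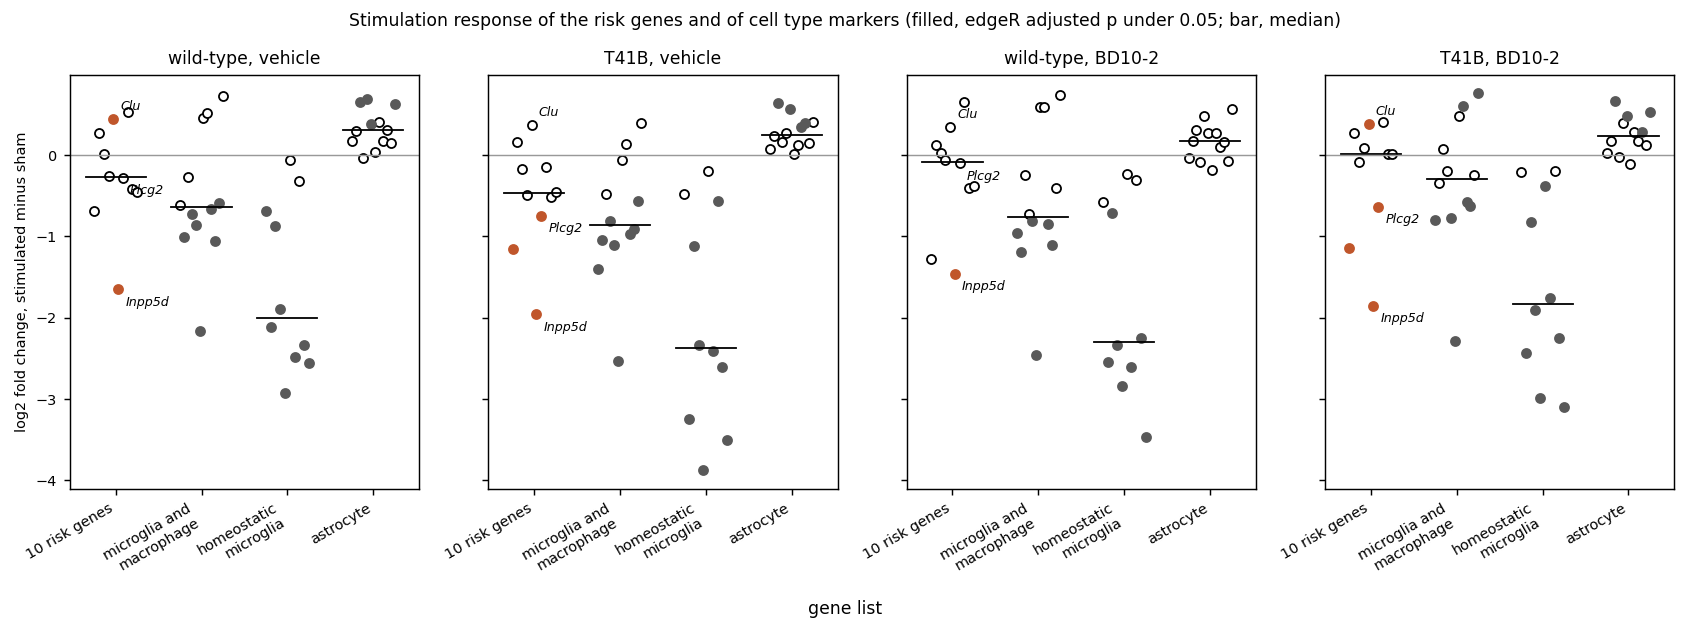
Log2 fold change after stimulation (vertical axis) of the 10 risk genes and of 12 microglia and macrophage, 10 homeostatic microglia and 12 astrocyte markers, one panel per combination of genotype and treatment. Each point is a gene, filled where the edgeR adjusted p is under 0.05, and bars are medians. The homeostatic microglia markers have medians of -2.0, -2.37, -2.30 and -1.83, beside Inpp5d at -1.65, -1.96, -1.46 and -1.85, and the astrocyte markers have medians of 0.17 to 0.31.

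Microglial markers moved with stimulation too. Of 10 homeostatic microglia markers, 8 were called lower in wild-type and 8 in T41B slices under vehicle, and 7 and 8 under BD10-2, with median log2 fold changes from -2.37 to -1.83. The 12 microglia and macrophage markers had 7, 8, 6 and 5 called lower in the same order, with medians of -0.64, -0.86, -0.77 and -0.29, and their summed level was lower in the stimulated slice in 14 of 14 mice. In T41B slices under BD10-2, 2 of the 12 were called higher, the phosphatase Ptprc (CD45; 0.76) and Fcer1g, an ITAM adaptor (0.60), which were at 0.40 to 0.74 and 0.14 to 0.59 in the other combinations without being called. The log2 fold changes of Inpp5d lay below the medians of these 12 markers and those of Trem2 and Spi1 above them, in every combination. Of 12 astrocyte markers, 4 were called higher in wild-type and in T41B slices under vehicle, 0 in wild-type and 4 in T41B slices under BD10-2. In wild-type vehicle slices all 9 choroid plexus markers were called higher (median 3.41), through the slices of Mouse1509 and Mouse1513. Their part in the responses of the 10 genes was not tested.

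Partner genes moved both ways after stimulation. In TREM2 and ITAM signalling, 2, 3, 2 and 5 of 17 tested genes rose and 1, 5, 3 and 4 fell in wild-type vehicle, T41B vehicle, wild-type BD10-2 and T41B BD10-2 slices. Over all genes tested, 8.21%, 11.7%, 6.29% and 13.3% rose and 4.10%, 9.83%, 2.58% and 9.52% fell in the same order, beside which these lists are to be read. Syk, the kinase recruited by TYROBP, rose in all 4 (log2 fold change 1.09 to 1.62), as did the adaptor Pik3ap1 (1.53 to 1.99). Pik3cg, the catalytic subunit of a phosphoinositide 3-kinase that makes the PIP3 that INPP5D removes, fell in all 4 (-1.67 to -1.12). Ptpn6 was at -0.62 in wild-type vehicle slices, where it was not called, and fell in the other 3 (-1.52 to -0.79). Of 14 PU.1 partners and targets, 3 to 5 rose and 2 to 5 fell, Cd14, the endotoxin co-receptor, by 2.92 to 4.06 upward and the integrin Itgam by 0.63 to 1.11 downward. Of 10 tested Siglecs and CD33 partners none rose and 3 to 5 fell, among them the sialyltransferase St3gal6 (-0.90 to -0.48). Bin2 fell in all 4 (-2.03 to -1.53) while Bin3 rose (0.34 to 0.48). Of 28 genes at other risk loci, 1 to 6 rose and 3 to 5 fell, with Cass4 (-2.22 to -1.30) and Rin3 (-1.11 to -1.02) lower and Usp6nl (0.51 to 0.67) higher in all 4. Of 18 lipoprotein partners 1 to 3 rose and none fell, the ubiquitin ligase Mylip in all 4 (0.77 to 0.91). Of 12 actin regulators 1, 1, 1 and 3 rose and 0, 1, 0 and 0 fell, with Nckap1l (0.72 to 1.47) higher in all 4.

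The treatment comparisons asked how BD10-2 differs from vehicle. None of the 10 genes was called by edgeR in any of the 4, and neither was any other gene (0.00%), although 1 other gene was called in T41B stimulated slices without the samples rich in choroid plexus markers. At an unadjusted p under 0.05 edgeR listed 374 genes (1.92%) in wild-type sham, 1093 (5.61%) in wild-type stimulated, 430 (2.21%) in T41B sham and 759 (3.90%) in T41B stimulated slices, and DESeq2 called 0, 25, 0 and 0 genes. None of the 10 had an unadjusted p under 0.05 in the first 3, and 3 had in T41B stimulated slices. Cd33 stood at 8.27, 12.7, 6.55 and 8.4 CPM under vehicle and at 15.3, 13.2, 11.7, 10.9 and 14.5 CPM under BD10-2 there. In this group 3 of 5 BD10-2 mice lay above the highest vehicle mouse, Mouse1551. On the log2 scale the fold change was 0.55 (95% interval 0.16 to 0.94, edgeR adjusted p = 1). The others were Trem2, at 0.53 (0.08 to 0.99), and Tyrobp, at 0.46 (0.00 to 0.92), both with an edgeR adjusted p of 1. In the fit without the choroid-rich samples the values of Cd33, Trem2 and Tyrobp were 0.66, 0.75 and 0.71, each with an edgeR adjusted p of 0.786. In sham T41B slices Cd33, Trem2 and Tyrobp differed by -0.03 (-0.41 to 0.35), -0.01 (-0.45 to 0.44) and -0.00 (-0.46 to 0.45). Without the choroid-rich samples these sham values were 0.22, 0.28 and 0.33, none called. Each of these values also compares batches.

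The interactions asked whether one factor alters the effect of another, and none of the 10 genes was called in any of the 6, nor any other gene by edgeR in the fit without covariates (0.00%). None of the 10 was called in any alternative fit either. For the difference between genotypes in the stimulation response, edgeR called 5 and 6 other genes under vehicle and BD10-2 with batch as a covariate, 3 and 0 with the mouse as a fixed effect, 0 and 2 without a filter and 0 and 6 with the second library of same-label pairs, and limma-voom with the block called 0 and 5. For the treatment difference in the T41B response, 1 other gene was called without the samples rich in choroid plexus markers. DESeq2 called 4 and 20 genes for the difference between genotypes in the stimulation response under vehicle and BD10-2, 1 and 0 for that between treatments in T41B and wild-type slices, and 0 for both differences between treatments in the genotype effect. For the genotype difference under vehicle, edgeR gave 1683 genes an unadjusted p under 0.05 (8.64%), 2 of the 10 among them: Plcg2, above, and Spi1, at -0.68 (95% interval -1.34 to -0.02, edgeR adjusted p = 0.569). Without the samples rich in choroid plexus markers, Plcg2 was at -0.31 and Spi1 at -0.49 (edgeR adjusted p = 0.923 for each). Under BD10-2 edgeR gave 846 (4.34%), with Plcg2 the only one of the 10. For the treatment difference in T41B slices it gave 526 (2.70%), with Cd33 the only one, at 0.58 (95% interval 0.04 to 1.13, edgeR adjusted p = 1). Cd33 was at 0.43 there without the samples rich in choroid plexus markers. The remaining 3 interactions had 337, 364 and 940 such genes (1.73%, 1.87% and 4.83%) and none of the 10.

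The genes whose pattern was most like that of each member were taken as the 3 with the highest Pearson's r of log2(CPM + 1) over the 32 samples, among 11988 genes averaging at least 5 CPM. These samples share mice, groups and depth, so the values describe and do not test. Trem2 and Tyrobp were each most like the other (r = 0.99; 0.93 after subtraction of group means) and then like C1qb and C1qc (0.98 to 0.99; 0.87 to 0.95 after that subtraction), subunits of complement C1q. Inpp5d was most like the transporter Slco2b1 (0.99; 0.88 after subtraction) and then Arhgap45 and Cx3cr1 (both 0.97; 0.61 and 0.64). Plcg2 was most like Csf1r, the receptor for the microglial growth factor CSF1 (0.93; 0.80 after subtraction), and Spi1 like Cyba and Hvcn1 (both 0.95; 0.70 and 0.66). Cd33 was most like Anxa3 (0.93; 0.77 after subtraction) and Abi3 like Fmnl3 (0.87; 0.51). Apoe and Clu shared Cst3 and Plcb3 among their nearest genes (0.96 to 0.98), with Cst3 at 0.95 and 0.94 and Plcb3 at 0.91 and 0.92 after subtraction of group means. Bin1 was most like Pex6 (0.88 either way).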

How the data were processed

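The deposited table holds expected counts per gene and library, which the authors made with RSEM, per the file header. The submitters' processing notes name cutadapt 1.8.1, STAR 2.7.6a, RSEM 1.3.1, featureCounts 1.6 and SAMtools 1.11, with the builds GRCm38.p6 and mm10. The libraries came from 200 ng of total RNA with a stranded, ribosomal RNA depleting kit, per the labels' protocols. Which annotation release was counted, and whether strand was used, is not given in the sources used here. Of the 55421 gene IDs, 55154 matched a symbol and 267 did not. Positions and exon lengths were taken from GENCODE M21 on GRCm38 and promoter letters from RefSeq on GRCm38.p6.

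Libraries with the same mouse and slice labels were added, and the sums were rounded to whole counts, since 5.7% of the deposited values held decimals. Genes were kept by filterByExpr with a minimum count of 10, which left 19478. TMM factors ran from 0.910 to 1.063. The quasi-likelihood test of edgeR 4.0.16 in R 4.3.3 was fitted to all 8 groups with no covariate, with Benjamini-Hochberg adjustment across every gene tested. The p-values of this fit rest on the spread between mice within groups. The fit treats all 32 samples as independent, although 14 of the 18 mice gave both slices, so it leaves the pairing unused. Standard errors were worked back from the log2 fold change and the F statistic of the test, and the 95% intervals come from them. They become unreliable where the change is almost nil. For the genotype difference in the stimulation response of Tyrobp, the SE was 0.11 under vehicle (log2 fold change -0.00) and 0.36 under BD10-2. Differences within a mouse or batch and correlations use log2(CPM + 1).

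The labels give the mouse of every slice, so sham and stimulated slices of 14 mice are paired. Deviations from group means of slices of the same mouse correlated at 0.19 on average (0.01 to 0.38, 14 pairs), against -0.05 (-0.33 to 0.26, 52 pairs) for different mice of a combination. The alternatives were RLE size factors, DESeq2 1.42.0, no filter, only the groups compared, 1 library of each same-label pair, batch as a covariate (not possible for treatment), the mouse as a replicate block (a random effect in limma 3.58.1 with voom, consensus correlation 0.34, or a fixed effect in edgeR), and leaving out each mouse. The fit without the samples over 100 CPM of 9 choroid plexus markers was chosen after seeing the data. The members and the lists were chosen with earlier results of these data known. From each list, at most 4 genes per kind of comparison were named, those called most often, with ties broken by size of change and a mean of at least 1 CPM.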

Additional observations from a re-analysis of the deposited data

Results flagged for a closer look

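In 7 of 60 gene and group combinations with 4 or 5 mice, 1 mouse stood apart from the rest of its group by a Dixon gap test, which chance alone does in about 1 in 20 groups. The combinations share mice and hold genes that vary together, so 7 of 60 cannot be set against that rate. Mouse1592, T41B under BD10-2, had the highest Inpp5d level of its group in sham (43.5 CPM) and in stimulated slices (13 CPM), and the highest Abi3 level in sham slices (8.9 CPM). Mouse1524, wild-type under vehicle, had the highest Apoe level in stimulated slices (1770 CPM) and the highest Clu level in sham slices (609 CPM). Apoe was also high in the stimulated slice of Mouse1564, T41B under BD10-2 (2555 CPM), and Cd33 in the sham slice of Mouse1551, T41B under vehicle (18.1 CPM).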

How the results depend on the processing

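No called difference of the 10 genes between genotypes or after stimulation changed its direction under any alternative that was run. Without a filter, no call was lost or gained. RLE size factors and DESeq2 lost none, but RLE gained 1 call (Clu after stimulation in T41B vehicle slices) and DESeq2 gained 3 (that one, Inpp5d between genotypes in stimulated vehicle slices and Abi3 between genotypes in sham BD10-2 slices). With only the first or only the second library of same-label pairs, 3 calls each were lost, all of Apoe, Inpp5d, Abi3 or Clu, and the second gained 1. Batch as a covariate left 5 of 10 genes called between genotypes in sham and 2 in stimulated slices under vehicle (8 and 6 without it), and 6 rather than 3 after stimulation in vehicle-treated T41B slices, where the genes called overall went from 1215 to 352, from 1128 to 764 and from 4197 to 4888 of 19478. Without the samples rich in choroid plexus markers these counts were 5, 2 and 1, and 252, 230 and 1183 genes were called overall. Both fits lean on batches A and C under vehicle, so they are not separate checks between genotypes. Fitting only the groups compared left 1 of 2 genes called after stimulation in wild-type vehicle slices, losing Clu (0.46, edgeR adjusted p = 0.0695). The share of all genes called there went from 12.3% to 8.99%. Between genotypes this fit lost 4 calls at nearly the same log2 fold change: Apoe in sham (0.65, edgeR adjusted p = 0.0578) and stimulated vehicle slices (0.55, edgeR adjusted p = 0.157), Cd33 in stimulated vehicle slices (0.74, edgeR adjusted p = 0.0797) and Inpp5d in stimulated BD10-2 slices (0.69, edgeR adjusted p = 0.116). The share of all genes called went from 6.24% to 3.08% in sham and from 5.79% to 4.57% in stimulated vehicle slices. Under BD10-2 it went from 5.45% to 9.58% in sham and from 10.6% to 6.78% in stimulated slices. Leaving out each mouse gave 3 to 6 genes between genotypes in stimulated slices under vehicle, with the lowest without Mouse1513, and 5 to 8 under BD10-2, with the lowest without Mouse1565. After stimulation it gave 1 gene in wild-type vehicle slices whichever mouse was left out. The share of all genes called with a mouse left out is not given here, so these counts cannot be read as particular to the 10 genes. The causes were not tested.

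The replicate block for the mouse raised the genes called after stimulation in vehicle-treated T41B slices from 3 to 7, as a random and as a fixed effect, and from 4 to 5 under BD10-2. The genes called overall rose too, from 4197 to 6307 (random) or 5743 (fixed) under vehicle and from 4453 to 6103 or 4656 under BD10-2. Abi3 had the lowest counts, at group means of 0.839 to 4.73 CPM, and how far depth limits its calls was not tested.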
